A study of Arabidopsis thaliana with 16 samples.

Results

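The comparison of the AGO5 immunoprecipitation (IP) with the GFP-only IP at day 7 rests on 4 of the 16 small RNA libraries of the series, 2 for each IP, chosen by their labels alone. The AGO5 libraries came from Arabidopsis thaliana plants of the col-0 accession that carried GFP-AGO5 under the AGO5 promoter (pAGO5::GFP-AGO5). The GFP-only libraries came from col-0 plants that carried free GFP under the viral 35S promoter (p35S::GFP), which is active in most cells, so the 2 baits were not made in the same set of cells. Both were taken from shoot apices at 7 days after germination, from plants grown on soil under 16 h light and 8 h dark. Beside them stand 2 libraries of an AGO9 IP, from plants with GFP-AGO9 under the AGO5 promoter, and 2 input libraries, 1 from the AGO5 line and 1 from the AGO9 line. The labels do not say whether replicates came from separate cultures of plants, so p-values measure only the spread between libraries. The limma fit used below takes that spread from all 16 libraries, not from the 4 compared. The median absolute log2 difference between replicates was 0.171 in the day 7 input. It was 0.487 in the AGO5 IP and 0.557 in the GFP-only IP of day 7.

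ARGONAUTE proteins hold a small RNA and use it to find matching transcripts. In plants, reads of 21 nt are typical of microRNAs (miRNAs) and of trans-acting siRNAs, reads of 22 nt of DCL2 products and of some miRNAs, and reads of 24 nt of the siRNAs that direct DNA methylation to transposable elements (TEs). AGO5 is known from reproductive tissue and for taking up small RNAs that begin with cytosine, while AGO9 is known for 24 nt siRNAs from TEs. The GFP-only IP measures the RNA that comes down without an ARGONAUTE bait.

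The miRNAs on which the miRNA results turn are printed from the RefSeq annotation of the TAIR10.1 assembly, 5′ to 3′, with the seed (bases 2 to 8) in capitals. They belong to miRNA genes on which the comparison turns or that were named whatever their result, and miR822-5p is shown for its site in genes that fell.
ath-miR166f: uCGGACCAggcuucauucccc
ath-miR165b: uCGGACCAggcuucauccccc
ath-miR403-3p: uUAGAUUCacgcacaaacucg
ath-miR827: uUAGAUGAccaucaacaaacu
ath-miR822-5p: uGCGGGAAgcauuugcacaug
ath-miR159a: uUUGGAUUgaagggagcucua
ath-miR319a: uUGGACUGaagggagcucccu
ath-miR396a-5p: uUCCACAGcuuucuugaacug
ath-miR164a: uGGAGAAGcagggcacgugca
ath-miR390a-5p: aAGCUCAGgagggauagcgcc
ath-miR845a: cGGCUCUGauaccaauugaug
ath-miR5643b: aGGCUUUUaagaucugguugc
The miR165 and miR166 sequences share the seed CGGACCA, and no other pair of the printed miRNAs shares a seed. Of the printed miRNAs only miR845a begins with C, miR390a-5p and miR5643b begin with A, and the other 9 begin with U.

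The deposited table gives reads scaled to a library total of 1000000 (RPM) for 65385 features, of which 31189 are TEs, 33900 nuclear genes and 325 miRNA genes, in columns for reads of 21, 22, 23 and 24 nt. The AGO5 libraries held 30516296 and 73734505 read assignments, against 13810392 and 23173991 in the GFP-only libraries. A count of 3 reads is worth 0.0983 and 0.0407 RPM in the AGO5 libraries, against 0.217 and 0.129 RPM in the GFP-only libraries. Of the tested features, 3.30% and 4.12% were listed at 0 in the AGO5 libraries, against 13.5% and 15.8% in the GFP-only libraries. The replicates of each IP differed by far more than counting noise, with a chi-square per degree of freedom of 745 for AGO5 and 444 for GFP-only. AGO5 replicate 2 differed from AGO5 replicate 1 in its miRNA share, 0.438% of reads against 7.35%. The AGO9 IP split alike, with 7.19% in replicate 1 and 0.505% in replicate 2. Dependence on AGO5 replicate 2 is named for some results below, and a result without that mark may rest on it too. In the input libraries the juvenile miRNAs MIR156 and MIR157 summed to 274 and 735 RPM at day 35, against 4637 and 4476 RPM at day 7.

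The AGO5 IP held more 24 nt reads and fewer 21 nt reads than the GFP-only IP, and most of its reads came from TEs. Reads of 24 nt were 42.7% and 52.7% of the AGO5 libraries, against 21.3% and 17.6% of the GFP-only libraries. Reads of 21 nt were 24.6% and 10.8% in the AGO5 IP, against 40.6% and 53.0% in the GFP-only IP. Both AGO5 libraries lay on the same side of both GFP-only libraries for each of these sizes. In means, 24 nt reads made up 47.7% ± 7.05 in the AGO5 IP and 19.5% ± 2.60 in the GFP-only IP (SD, n = 2 each), a difference of 28.2 percentage points. The 22 nt share was 21.7% and 29.8% in the AGO5 IP, against 21.6% and 17.3% in the GFP-only IP, so AGO5 replicate 1 and GFP-only replicate 1 were almost level. Reads of 23 nt were 8.83% ± 2.995 in the AGO5 IP and 14.2% ± 3.13 in the GFP-only IP (SD, n = 2 each). With 2 libraries against 2, an exact two-sided permutation test gives p = 0.333 at the least, and it gave that value for the 24 nt share. When every feature reaching 1 RPM at a size was given equal weight there, the difference was 9.71 points at 24 nt, -9.78 at 21 nt and 0.50 at 22 nt. The 95% Wilson interval of each size share was at most 0.0259 points to either side, which covers counting error only.

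**Figure D1:**
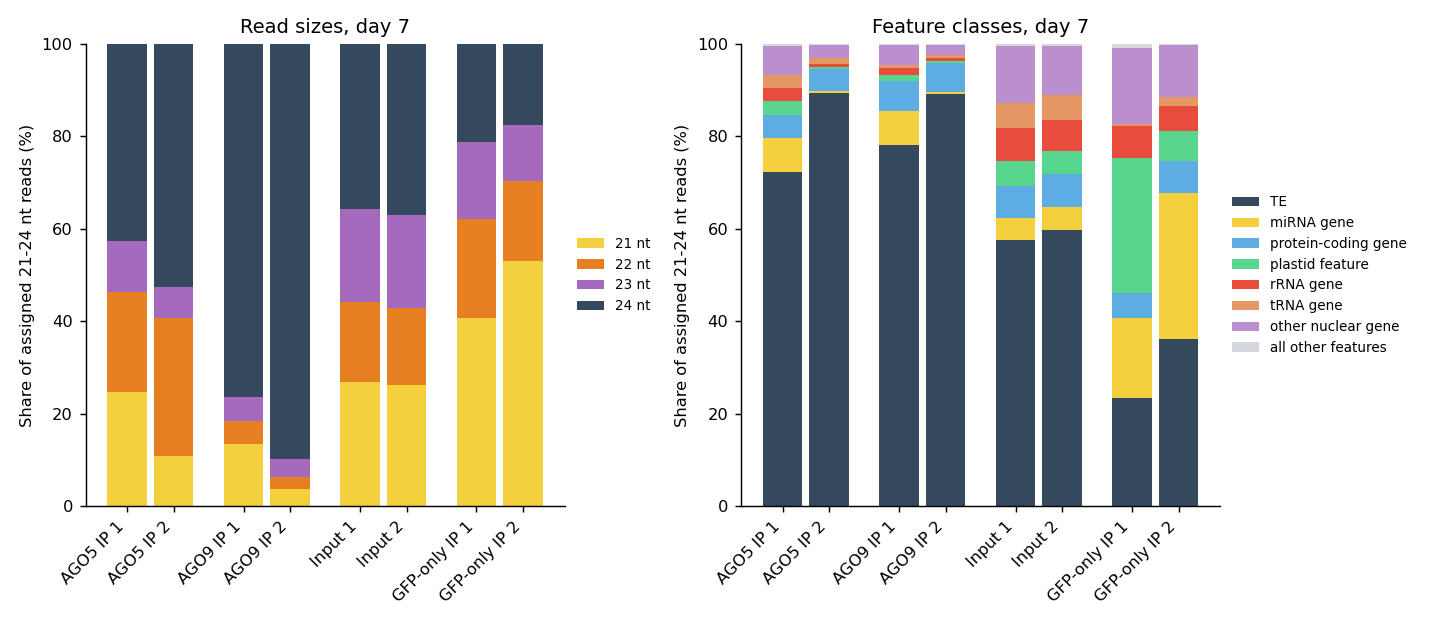
Each bar is 1 library of day 7, in the order AGO5 IP, AGO9 IP, input and GFP-only IP, and shows the percentage of its reads by read size (left) and by feature class (right). TEs fill 72.3% and 89.5% of the AGO5 bars, against 23.4% and 36.3% of the GFP-only bars.

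TEs took 72.3% and 89.5% of the reads of the AGO5 libraries, against 57.6% and 59.7% of the input libraries and 23.4% and 36.3% of the GFP-only libraries. The AGO5 and GFP-only libraries did not overlap, and the GFP-only libraries lay below the input as well. Reads of miRNA genes were 7.35% and 0.438% in the AGO5 IP, against 17.3% and 31.5% in the GFP-only IP. They were 4.73% and 4.97% in the input. AGO5 replicate 1 thus lay above the input and AGO5 replicate 2 below it, while both GFP-only libraries lay above it. Plastid features gave 3.11% and 0.425% of the AGO5 reads, against 29.3% and 6.54% of the GFP-only reads. In the input they gave 5.43% and 4.93%, above both AGO5 libraries and below both GFP-only libraries. The GFP-only background was thus mostly miRNA and plastid RNA together with TE reads, and its 2 libraries differed in the mix. Since RPM shares sum to a fixed total, a class that takes more of a library lowers the values of the others.

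Within the TE reads the sizes differed between the 2 IPs too. Reads of 24 nt were 50.7% and 54.1% of the TE reads in the AGO5 IP, against 88.2% and 92.3% in the AGO9 IP and 35.4% and 32.8% in the GFP-only IP. Reads of 22 nt were 22.9% and 30.3% of the TE reads in the AGO5 IP, against 3.44% and 2.07% in the AGO9 IP and 22.5% and 22.1% in the GFP-only IP. The 22 nt share of TE reads in AGO5 replicate 1 was therefore close to that of the background, and only AGO5 replicate 2 lay well above it. Reads of 21 nt were 16.1% and 9.50% of the TE reads in the AGO5 IP, against 28.5% and 29.6% in the GFP-only IP. Reads of protein-coding genes followed the same order, with 24 nt reads at 49.6% and 56.5% of them in the AGO5 IP, against 19.9% and 17.1% in the GFP-only IP.

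Feature by feature, with all sizes summed, far more features stood above the pull-down background in the AGO5 IP than below it. In the limma fit on log2(RPM + 1), 4176 of 17020 tested features were higher in the AGO5 IP (24.5% of those tested) and 237 were lower (1.39%), at an adjusted p under 0.05. Both AGO5 libraries exceeded both GFP-only libraries at 57.6% of the tested features and lay below both at 7.98%. The filter on low values used all 16 libraries, so 3544 of the tested features averaged under 1 RPM in these 4, and 133 of those were higher and 6 lower. The median difference over all tested features was 0.73 on the log2 scale, so a feature at the middle of the table already sits above 0. Centring each library on its median removes that shift, and limma then called 0 features in either direction (2681 at an unadjusted p under 0.05), or 2960 higher and 1749 lower when the shallow day 35 GFP-only pair was left out of the fit. A fit of only these 4 libraries called 0 features with limma after adjustment, with 6239 at an unadjusted p under 0.05, and edgeR on the recovered reads in the 16-library fit called 1462 higher features.

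By class, 3487 of 12233 tested TEs were higher (28.5%, near the 24.5% of all features) and 18 lower, with a median of 0.86. Of 3172 tested protein-coding genes 470 were higher and 158 lower, with a median of 0.24. Of 684 other nuclear genes 186 were higher (27.2%) and 6 lower. Of 153 tested miRNA genes 3 were higher and 37 lower, with a median of -1.86. Of 127 plastid features 0 were higher and 16 lower in the limma fit, with a median of -1.66. Of 87 mitochondrial features 22 were higher and 0 lower, a share close to that of all features. When RPM was computed over TEs only, 712 TEs were higher and 605 lower with a median of -0.06, so the split of calls within the TEs depends on the total to which they are scaled.

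**Figure D2:**
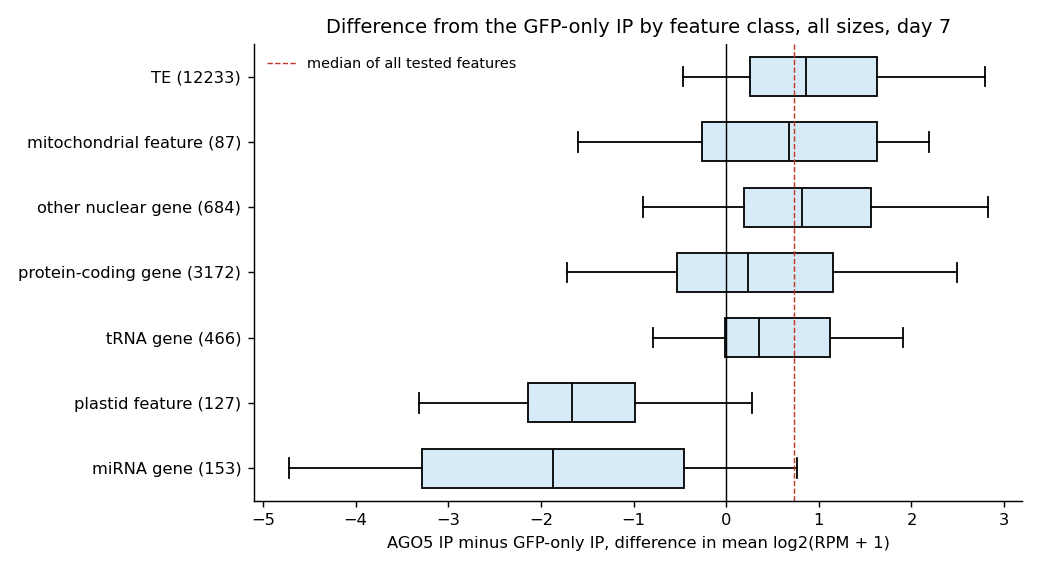
Boxes show the log2 difference, AGO5 IP minus GFP-only IP of day 7, over the tested features of each class (median, quartiles, and whiskers to the 5th and 95th percentile), with the number tested beside each class and the median of all features, 0.73, as a dashed line. TEs centre on 0.86, miRNA genes on -1.86 and plastid features on -1.66.

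Of the 3487 TEs that rose, 2922 lie in TE-rich regions, and long TEs make up a large part of them. The genome was divided into 240 windows of 500000 bases, and in 48 of them TEs cover more bases than protein-coding genes do. In these TE-rich windows 2922 of 7562 tested TEs were higher (38.6%) and 8 lower, with a median of 1.207. In the other windows 565 of 4671 were higher (12.1%) and 10 lower, with a median of 0.45. TEs of at least 2000 bases in TE-rich windows were higher at 1280 of 1841, or 69.5%, and TEs under 500 bases there at 644 of 2785, or 23.1%. Outside the TE-rich windows the shares were 35.2% for TEs of at least 2000 bases and 6.69% for those under 500 bases.

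The long TEs were also the better measured ones. Tested TEs of at least 2000 bases in TE-rich windows had a median of 41.9 RPM over the 4 libraries, against 2.77 RPM for those under 500 bases there. The TEs called higher had a median length of 1561 bases, a median GC content of 39.6% and a median level of 24.8 RPM, against 586 bases, 29.3% and 2.81 RPM in the tested TEs that were not called higher. The part of level and GC content in the call shares was not tested. In summed reads, long TEs of the TE-rich windows gave 254646 and 443411 RPM in the AGO5 IP, against 74947 and 92998 RPM in the GFP-only IP. Both AGO5 sums exceeded both GFP-only sums by more than either pair differed within itself in fold terms.

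**Figure D3:**
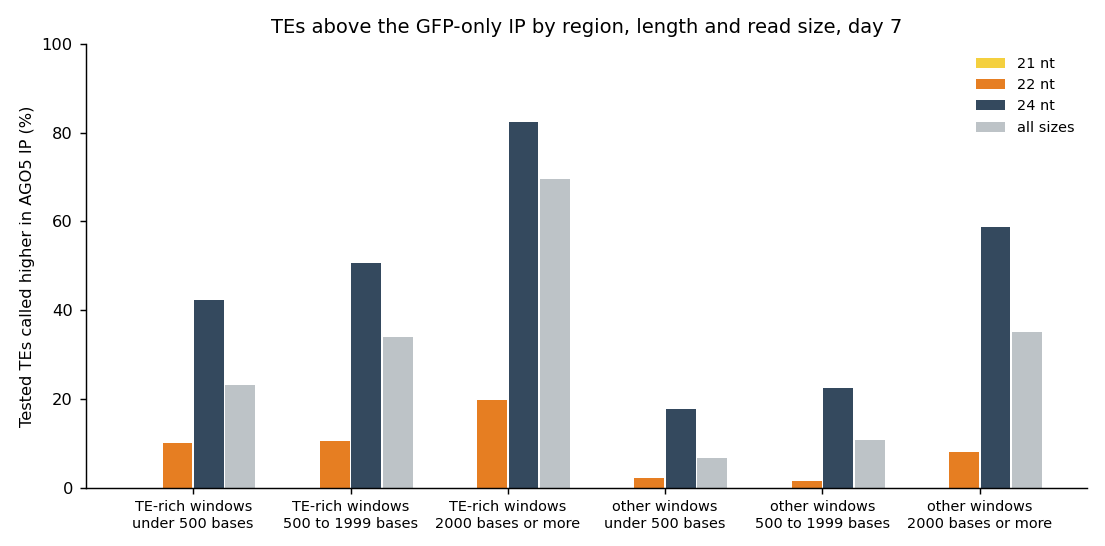
Bars give the percentage of tested TEs called higher in the AGO5 IP than in the GFP-only IP of day 7 (limma adjusted p under 0.05), by window type, TE length and read size. At 24 nt the share is 82.4% for TEs of at least 2000 bases in TE-rich windows, and at 21 nt all bars are at 0.

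The 4 read sizes did not carry the same contrast. At 24 nt, 5911 of 14054 tested features were higher (42.1%) and 87 lower (0.619%), with a median of 1.207. At 22 nt, 693 of 7325 were higher (9.46%) and 29 lower (0.396%), with a median of 0.76. At 23 nt, 6 of 8482 were higher (0.0707%) and 3 lower (0.0354%). At 21 nt limma called 0 of 6713 in either direction, with 497 at an unadjusted p under 0.05 and 10 higher features by edgeR, and the median was -0.24. The 22 nt calls depend on AGO5 replicate 2, since the limma fit without it called 0 features (761 at an unadjusted p under 0.05), and edgeR called 0 at 22 nt as well (1111 unadjusted).

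At 24 nt, TEs of at least 2000 bases in TE-rich windows were higher at 1507 of 1829 tested, with a median of 2.57. In the other windows 326 of 554 long TEs were higher at 24 nt, with a median of 1.53. At 22 nt, long TEs of TE-rich windows were higher at 299 of 1510, or 19.8%, with a median of 1.63. At 21 nt the median was 0.00 over 3370 TEs of TE-rich windows and -0.73 over 1683 TEs of the other windows. Over all tested TEs the median was 1.28 at 24 nt and 0.95 at 22 nt, with 44.5% and 10.7% called higher. TEs under 500 bases in TE-rich windows had the other order of medians, 1.25 at 24 nt and 1.46 at 22 nt. The sets of tested TEs differed between the sizes, and the 22 nt calls depend on AGO5 replicate 2.

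Tested directly, the 22 nt difference minus the 24 nt difference had a median of -0.86 over 7053 features. No feature passed, as limma called 0 in either direction with 641 at an unadjusted p under 0.05, while the fit of the 8 day 7 libraries called 11 higher and 487 lower. A lower value here means that a feature's 24 nt reads exceeded the background by more than its 22 nt reads did.

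The 5 higher TEs named by size of difference all lie in TE-rich windows, and 4 of them are over 2000 bases long. AT5TE39905, a TE of 4168 bases at chr5:10972236-10976403, had 127 and 320 RPM in the AGO5 IP, against 133 and 224 RPM in the AGO9 IP, 23.3 and 25.4 RPM in the input and 8.04 and 7.29 RPM in the GFP-only IP. The AGO5 libraries lay above every input and GFP-only library, while the AGO9 libraries lay between the AGO5 libraries. It rose by 4.55 ± 0.483 log2 units over the GFP-only IP (SE, adjusted p = 0.000383), and by 3.002 over the input (adjusted p = 0.00703), a contrast in which 7.73% of all tested features were higher. Its difference from the AGO9 IP was 0.23 (adjusted p = 0.778). Its 24 nt reads were 80.3 and 211 RPM in the AGO5 IP, against 126 and 217 RPM in the AGO9 IP and 3.26 and 1.73 RPM in the GFP-only IP. Its 22 nt reads were 35.1 and 81.0 RPM in the AGO5 IP, against 1.74 and 1.29 RPM in the AGO9 IP and 2.90 and 1.68 RPM in the GFP-only IP. At 24 nt the AGO5 and AGO9 libraries were alike in range, and at 22 nt the AGO9 libraries sat with the background.

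AT3TE54575, a TE of 5736 bases at chr3:13378564-13384299, showed the same layout. It had 86.6 and 253 RPM in the AGO5 IP, against 82.3 and 138 RPM in the AGO9 IP and 3.40 and 9.11 RPM in the GFP-only IP, a rise of 4.48 ± 0.572 (SE, adjusted p = 0.000424). Its 22 nt reads were 32.2 and 93.8 RPM in the AGO5 IP, against 1.88 and 0.703 RPM in the AGO9 IP and 0.869 and 3.45 RPM in the GFP-only IP. The AGO5 libraries stood above all the others at 22 nt, with no overlap. AT5TE37085, of 3028 bases, had 38.7 and 93.6 RPM in the AGO5 IP, against 55.1 and 92.7 RPM in the AGO9 IP and 1.01 and 2.76 RPM in the GFP-only IP, and rose by 4.48 (adjusted p = 0.000396). AT1TE52845, of 2044 bases, had 20.2 and 51.0 RPM in the AGO5 IP, against 37.4 and 42.1 RPM in the AGO9 IP and 0.362 and 0.690 RPM in the GFP-only IP, and rose by 4.45 (adjusted p = 0.000401). In each of these 4 TEs the AGO9 libraries overlapped the AGO5 libraries in all-size RPM or lay between them, and none of the 4 differed between the 2 ARGONAUTE IPs at an adjusted p under 0.05.

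The TE with the largest fitted difference of the 5, AT2TE13410 at chr2:3092771-3093021, is a short TE made largely of an alternating CT run, which is why its sequence is shown, read on the plus strand of TAIR10.
AT2TE13410: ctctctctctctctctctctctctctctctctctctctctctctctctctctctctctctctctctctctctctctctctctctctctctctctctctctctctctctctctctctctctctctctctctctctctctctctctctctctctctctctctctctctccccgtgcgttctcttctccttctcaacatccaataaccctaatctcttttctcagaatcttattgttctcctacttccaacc
Its longest CT run covers 168 of its 251 bases. It had 22.6 and 55.2 RPM in the AGO5 IP, against 2.85 and 5.48 RPM in the AGO9 IP, 2.39 and 7.52 RPM in the input and 0 and 0.259 RPM in the GFP-only IP. The AGO5 libraries were above all 6 others, and GFP-only replicate 1 had no read. The fitted rise of 5.02 ± 1.56 (SE, adjusted p = 0.0331) depends on the pseudocount of 1 RPM and was lost in every fit that left out 1 of the 4 libraries.

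CT runs were looked for in the other TEs after this value had been seen. A run of at least 20 bases of alternating C and T on either strand is held by 129 of 31189 TEs (0.414%) and by 60 of the 12233 tested (0.490%). Of these 60, 33 were higher and 0 lower, with a median of 2.81, against a median of 0.86 and 28.5% higher over all tested TEs. TEs of at least 2000 bases in TE-rich windows were higher at 69.5%, with a median of 1.92. The TEs with the run were not matched to others by length or region, so the part of the run itself was not tested. Their summed level was 1696 and 3105 RPM in the AGO5 IP, against 2348 and 2597 RPM in the AGO9 IP, 1182 and 1379 RPM in the input and 345 and 532 RPM in the GFP-only IP. Both AGO5 sums exceeded both GFP-only sums, and the AGO9 sums lay between the AGO5 ones. At 22 nt the sums were 376 and 1034 RPM in the AGO5 IP, against 43.0 and 42.2 RPM in the AGO9 IP, 75.4 and 73.8 RPM in the input and 66.3 and 134 RPM in the GFP-only IP, and 1 of 55 tested was higher. Over all TEs tested at 22 nt, 10.7% were higher. At 24 nt 38 of 55 TEs with the run were higher, against 44.5% of all TEs tested at that size and 82.4% of the long TEs in TE-rich windows. Their 24 nt sums were 947 and 1529 RPM in the AGO5 IP, against 2152 and 2435 RPM in the AGO9 IP. The GFP-only IP had 169 and 204 RPM. The AGO5 sums thus lay above the AGO9 sums at 22 nt and below them at 24 nt. The same order held over all TEs. Their 22 nt sums were 165862 and 271315 RPM in the AGO5 IP, against 26917 and 18445 RPM in the AGO9 IP. At 24 nt all TEs gave 366920 and 483754 RPM in the AGO5 IP, against 689938 and 823236 RPM in the AGO9 IP.

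AT1TE51010 at chr1:15450628-15450822, named from the 24 nt column, is a tandem repeat with a unit of 48 bases, and its sequence is shown on its own minus strand so that the repeat can be seen.
AT1TE51010: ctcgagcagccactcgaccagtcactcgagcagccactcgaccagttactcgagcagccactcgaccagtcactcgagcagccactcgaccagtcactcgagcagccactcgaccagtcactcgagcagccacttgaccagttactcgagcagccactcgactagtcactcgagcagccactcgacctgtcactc
Over its 195 bases, 95.2% of the letters equal the letter 48 bases further on, and its GC content is 60.5%. Its 24 nt reads were 28.6 and 69.4 RPM in the AGO5 IP, against 14.2 and 41.3 RPM in the AGO9 IP and 0.434 and 0 RPM in the GFP-only IP. It rose by 5.25 at 24 nt (adjusted p = 0.00012). Its 22 nt reads were 57.1 and 128 RPM in the AGO5 IP, against 1.06 and 0.422 RPM in the AGO9 IP and 2.97 and 7.47 RPM in the GFP-only IP (adjusted p = 0.0504). AT4TE21060, of 440 bases, had 22 nt reads of 24.5 and 60.9 RPM in the AGO5 IP, against 0.752 and 0.271 RPM in the AGO9 IP and 0.145 and 2.59 RPM in the GFP-only IP, and rose by 4.29 at that size (adjusted p = 0.0067). At both TEs the 22 nt reads of the AGO5 libraries did not overlap those of any other library of day 7 named here. Of the all-size calls of AT1TE51010 and AT4TE21060, neither held without AGO5 replicate 2.

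**Figure D4:**
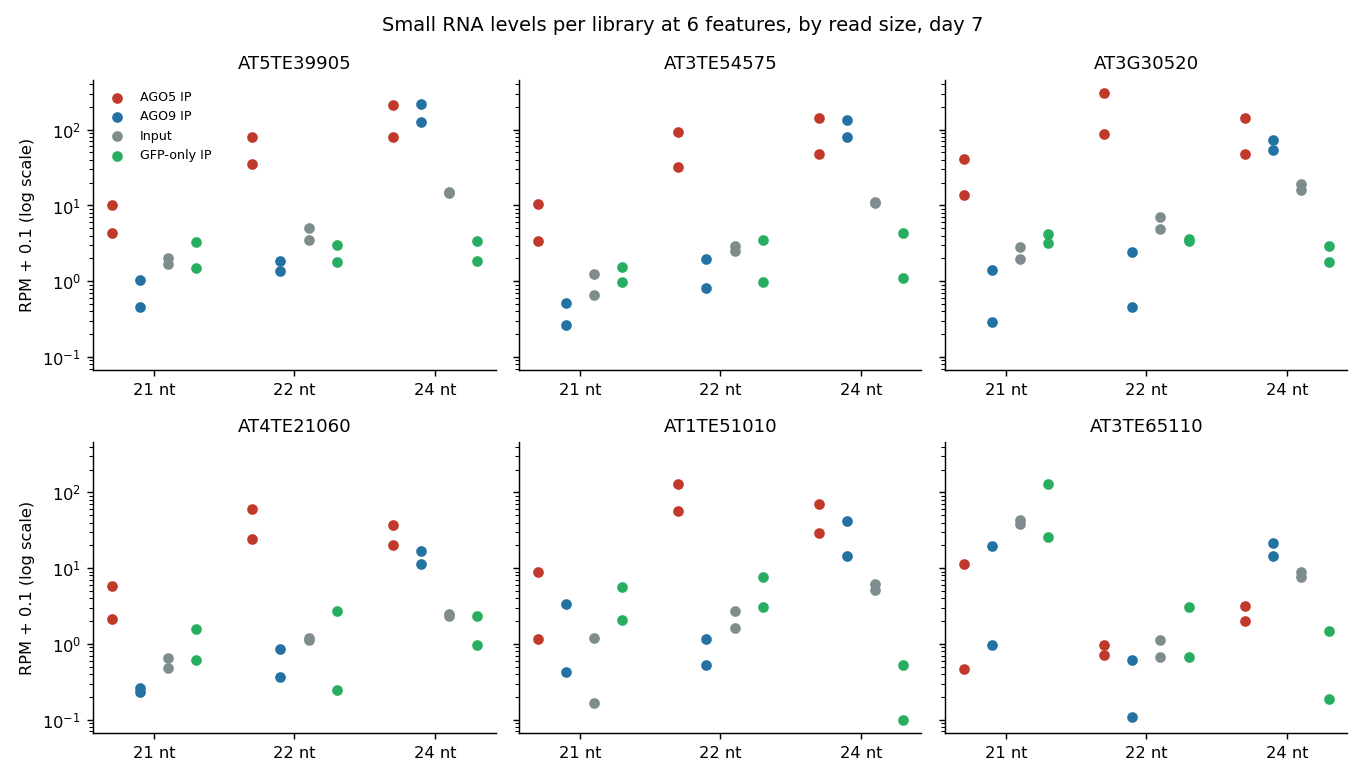
Points are single libraries of day 7 (AGO5 IP, AGO9 IP, input, GFP-only IP) and give RPM + 0.1 on a log axis for reads of 21, 22 and 24 nt at 6 named features. At AT5TE39905 the AGO9 points sit with the AGO5 points at 24 nt (126 and 217 RPM) and with the GFP-only points at 22 nt (1.74 and 1.29 RPM).

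Few TEs fell, and in all 5 named ones the 21 nt reads were below the background in both AGO5 libraries, though none passed at 21 nt alone (adjusted p between 0.326 and 0.404). AT3TE65110 had 15.1 and 3.44 RPM in the AGO5 IP, against 28.0 and 134 RPM in the GFP-only IP, and fell by 2.89 log2 units (adjusted p = 0.0112). Its 21 nt reads were 11.2 and 0.366 RPM in the AGO5 IP, against 25.99 and 130 RPM in the GFP-only IP, while its 24 nt reads were 3.05 and 1.93 RPM in the AGO5 IP, against 1.38 and 0.0863 RPM in the GFP-only IP. The groups thus stood in opposite order at 21 and at 24 nt. AT5TE51225, AT3TE64920 and AT3TE65715 had the same layout, with 21 nt reads between 129 and 134 RPM in GFP-only replicate 2 and under 1 RPM in AGO5 replicate 2. AT4TE52300, of 50 bases, had 4.98 and 3.47 RPM in the AGO5 IP, against 44.3 and 22.98 RPM in the AGO9 IP and 12.2 and 20.8 RPM in the GFP-only IP, and was the only 1 of these 5 that also fell against the AGO9 IP (adjusted p = 0.00493), where 21.5% of all tested features were lower. The other 4 also fell against the input, where 10.4% of all tested features were lower, AT3TE65110 by 2.67 log2 units (adjusted p = 0.0261). The calls of the first 4 were lost without AGO5 replicate 2 and without GFP-only replicate 2.

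Among nuclear genes, the strongest rises were in the TE-rich parts of the genome. Of 435 tested protein-coding genes in TE-rich windows that overlap no TE, 171 were higher and 8 lower, with a median of 1.49, against 164 higher and 134 lower of 2019 in the other windows, with a median of 0.00. Over all tested protein-coding genes 14.8% were higher and 4.98% lower, and over all tested features 24.5% and 1.39%. The counts by window leave out genes that overlap a TE. All 5 higher genes named by size lie in TE-rich windows. AT3G30520, a gene whose RefSeq product is a heat shock protein, had 155 and 498 RPM in the AGO5 IP, against 59.4 and 76.3 RPM in the AGO9 IP, 26.6 and 33.9 RPM in the input and 10.1 and 10.6 RPM in the GFP-only IP. The AGO5 libraries were above all others, and the gene rose by 4.62 ± 0.933 (SE, adjusted p = 0.00328). Its 22 nt reads were 88.0 and 305 RPM in the AGO5 IP, against 2.31 and 0.361 RPM in the AGO9 IP and 3.48 and 3.32 RPM in the GFP-only IP, a rise of 5.23 (adjusted p = 0.00648). Its 24 nt reads were 47.8 and 141 RPM in the AGO5 IP, against 54.3 and 73.9 RPM in the AGO9 IP and 2.82 and 1.68 RPM in the GFP-only IP. The AGO9 libraries therefore held its 24 nt reads at a like level and hardly any of its 22 nt reads.

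AT3G30147, which the annotation gives no product, had 26.5 and 66.3 RPM in the AGO5 IP, against 10.6 and 18.4 RPM in the AGO9 IP and 0.869 and 0.0432 RPM in the GFP-only IP. It rose by 4.94 over the GFP-only IP (adjusted p = 0.000383) and by 1.52 over the AGO9 IP (adjusted p = 0.0438), in a contrast where 3.44% of all tested features were higher. AT2G13145, likewise without a product, had 21.6 and 56.3 RPM in the AGO5 IP, against 26.2 and 35.8 RPM in the AGO9 IP and 0.217 and 0.0432 RPM in the GFP-only IP, and rose by 4.997 (adjusted p = 0.000481). At both genes GFP-only replicate 2 lay below the level of 3 reads. AT3G29796, an uncharacterized protein gene that overlaps 12 annotated TEs, had 69.2 and 138 RPM in the AGO5 IP, against 62.4 and 91.5 RPM in the AGO9 IP and 4.49 and 3.97 RPM in the GFP-only IP, and rose by 4.24 (adjusted p = 0.000383). AT4G08370, a proline-rich gene like the extensins of the cell wall, had 52.1 and 47.7 RPM in the AGO5 IP, against 3.19 and 0 RPM in the GFP-only IP, and rose by 4.64 ± 1.47 (SE, adjusted p = 0.0358), a call lost without either AGO5 library.

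Several genes that fell in the AGO5 IP hold a site for a miRNA and had mostly 21 nt reads. NLA, an SPX-domain ubiquitin ligase of phosphate and nitrogen supply and a known target of miR827, had 2.65 and 0.285 RPM in the AGO5 IP, against 39.5 and 89.5 RPM in the GFP-only IP. Both AGO5 libraries were below both GFP-only libraries, and NLA fell by 4.805 log2 units (adjusted p = 0.00341). MIR827 itself had 2.52 and 0 RPM in the AGO5 IP, against 46.7 and 97.0 RPM in the GFP-only IP, and fell by 5.19 (adjusted p = 0.00275). The site in NLA, with the base that differs from the exact complement of the miRNA in capitals, lies at chr1:635401-635421.
NLA site of miR827: Tgtttgttgatggtcatctaa
AGO2 is an ARGONAUTE gene and a known target of miR403. It had 745 and 36.3 RPM in the AGO5 IP, against 2524 and 4251 RPM in the GFP-only IP. The input had 590 and 623 RPM, below AGO5 replicate 1 and above AGO5 replicate 2. Against the GFP-only IP, AGO2 fell by 4.30 (adjusted p = 0.039). Its 21 nt reads, 648 and 25.1 RPM in the AGO5 IP against 2325 and 3811 RPM in the GFP-only IP, were nearly those of MIR403, 653 and 25.1 RPM in the AGO5 IP against 2387 and 3907 RPM in the GFP-only IP. Its site lies at chr1:11185223-11185243.
AGO2 site of miR403-3p: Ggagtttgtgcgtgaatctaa
The strand on which reads were counted is not given in the sources used here, so the reads of a miRNA and those of its target cannot be told apart at such a site.

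3 genes of the Cysteine/Histidine-rich C1 domain family, AT5G02330, AT5G02350 and AT2G13900, fell together and share their reads. AT5G02330 had 117 and 2.77 RPM in the AGO5 IP, against 252 and 6.17 RPM in the AGO9 IP, 173 and 185 RPM in the input and 1142 and 1141 RPM in the GFP-only IP, nearly all of 21 nt. The GFP-only libraries stood above all 6 others, and the gene fell by 5.76 log2 units (adjusted p = 0.0244). Genes of this family are known targets of miR822, and AT5G02330 holds a site in which 1 base, in capitals, differs from the exact complement of miR822-5p.
AT5G02330 site of miR822-5p: catgtgcaaatgcttcTcgca
MIR822 was listed at 0 RPM in all 4 libraries, and in the AGO9 IP and input libraries of day 7 as well. The 21 nt reads at the C1 genes thus had no counterpart at that locus in the table. MIR165a was at 0 RPM in the same libraries, while its sister locus MIR165b had 11734 and 18501 RPM in the GFP-only IP. A value of 0 at a locus therefore does not show that its miRNA was absent, and why these loci stood at 0 was not tested. AT2G07706, an uncharacterized protein gene, had 452 and 32.8 RPM in the AGO5 IP, against 966 and 206 RPM in the AGO9 IP, 154 and 129 RPM in the input and 6038 and 9680 RPM in the GFP-only IP. The GFP-only libraries were far above the other 6, and the gene fell by 5.95 ± 0.986 (SE, adjusted p = 0.00108), also at 22, 23 and 24 nt taken alone. AT5G36210, an alpha/beta-hydrolase gene, fell at 22 nt, where it had 80.2 and 37.7 RPM in the AGO5 IP, against 500 and 2949 RPM in the GFP-only IP (-4.44, adjusted p = 0.0132), while its 24 nt reads of 46.1 and 26.04 RPM in the AGO5 IP overlapped the 21.7 and 44.2 RPM of the GFP-only IP.

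Reads of miRNA genes were among the classes that the AGO5 IP held below the background, as were those of plastid features. In RPM, 37 of the 153 tested miRNA genes fell and 3 rose, with a median of -1.86, but the median turned to 0.53, with 0 called in either direction by limma, when RPM was computed over miRNA genes only. Of the named miRNA genes, MIR166f, MIR165b, MIR827 and MIR403 were below 0 on both scales and MIR5643b above 0 on both. MIR396a, MIR390a, MIR161 and MIR159a were below 0 in RPM and stood at 2.59, 2.20, 0.84 and 0.42 in that order over miRNA genes only, where none passed. Family medians are given in RPM alone. The count of 37 lower miRNA genes depends on single libraries: it was 65 without AGO5 replicate 1, 1 without AGO5 replicate 2, 6 without GFP-only replicate 1 and 1 without GFP-only replicate 2.

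MIR165 and MIR166, which target the class III HD-ZIP genes of the shoot apex, fell at all 8 of their tested loci, with a median of -4.85. MIR166f had 2664 and 95.9 RPM in the AGO5 IP, against 4433 and 223 RPM in the AGO9 IP, 803 and 720 RPM in the input and 12180 and 19411 RPM in the GFP-only IP. The GFP-only libraries lay above all others, the input included, and MIR166f fell by 4.92 (adjusted p = 0.0379). As a share of the miRNA reads, MIR166f had 363 and 219 per 10000 in the AGO5 IP, against 703 and 616 per 10000 in the GFP-only IP, so it stayed below the GFP-only libraries on this scale too, at -1.22 with an adjusted p of 0.282. MIR165b had 2598 and 99.0 RPM in the AGO5 IP, against 11734 and 18501 RPM in the GFP-only IP, and fell by 4.85. MIR166 loci share most of their mature sequence, so their reads may be counted at several of them.

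The MIR169 loci, which target NF-YA genes, fell at 10 of 14 with a median of -2.81, beside 24.2% of all tested miRNA genes. MIR169h and MIR169i to MIR169n had nearly the same values, 9.11 to 9.37 RPM in AGO5 replicate 1, so their calls may not be separate. The auxin-linked MIR160, MIR167 and MIR393 loci fell at 4 of 9, with a median of -3.44. The MIR162, MIR168 and MIR403 loci, which target DCL1, AGO1 and AGO2, fell at 1 of 5, MIR403. The MIR159 and MIR319 loci, which target MYB and TCP genes, fell at 1 of 6. None of 8 tested MIR156 and MIR157 loci (targets: SPL genes), 5 MIR172 loci (AP2-like genes), 5 MIR164 and MIR394 loci or 6 MIR170, MIR171 and MIR396 loci passed, with medians of -2.69, -0.78, -1.35 and -1.75 in that order. MIR159a, the most abundant, had 12343 and 536 RPM in the AGO5 IP, against 16917 and 36873 RPM in the GFP-only IP, a difference of -3.28 with an adjusted p of 0.0624.

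**Figure D5:**
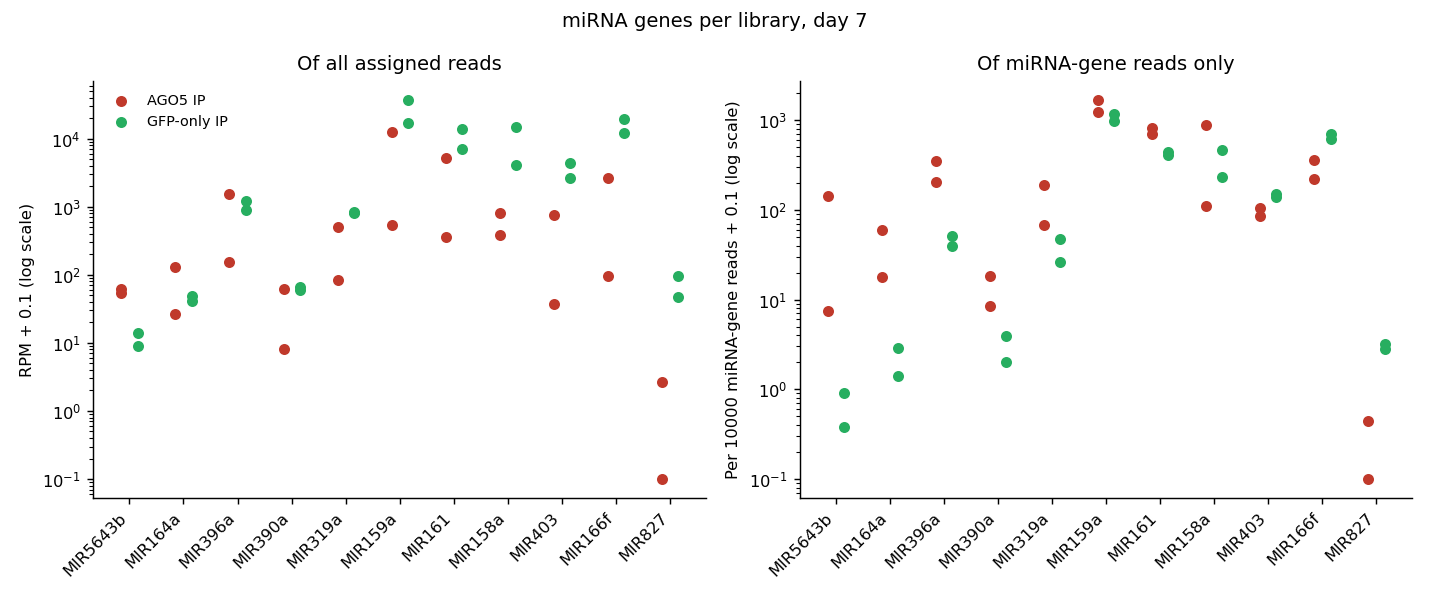
Points are single libraries of the AGO5 IP and the GFP-only IP of day 7 for 11 miRNA genes, as RPM + 0.1 (left) and as reads per 10000 miRNA-gene reads + 0.1 (right), both on log axes. The AGO5 points of MIR396a lie on either side of the GFP-only points in RPM and above both of them in share, at 206 and 352 against 51.3 and 39.1.

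Many miRNA genes took a larger share of the reads at miRNA genes in the AGO5 IP than in the background. In AGO5 replicate 2 this share rests on 0.438% of its reads. Reads of 21 nt were 95.1% and 81.6% of the reads at miRNA genes in the AGO5 IP, against 96.0% and 95.6% in the GFP-only IP. The shares below therefore count reads of all sizes at these genes and do not measure loading of the mature miRNAs. Of the 153 tested, both AGO5 libraries exceeded both GFP-only libraries in share at 55 (35.9%) and lay below both at 20 (13.1%), with a median log2 difference in share of 0.22. MIR396a, which targets the GROWTH-REGULATING FACTOR genes, had 206 and 352 per 10000 miRNA reads in the AGO5 IP, against 51.3 and 39.1 per 10000 in the GFP-only IP. MIR164a, which targets NAC genes such as CUC1 and CUC2, had 17.6 and 59.8 per 10000 in the AGO5 IP, against 2.79 and 1.29 per 10000 in the GFP-only IP. Its sister loci were lower in AGO5 replicate 2, with 14.4 and 4.21 per 10000 for MIR164b and 14.1 and 6.35 per 10000 for MIR164c in the AGO5 IP, and MIR164a was singled out after its values were seen. MIR390a, which starts the TAS3 pathway through AGO7, had 8.42 and 18.2 per 10000 in the AGO5 IP, against 3.78 and 1.91 per 10000 in the GFP-only IP. MIR396a, MIR164a and MIR390a did not overlap between the IPs in share, yet in RPM none of the 3 passed, with differences of -1.11, 0.39 and -1.42 in that order. MIR319a had 68.1 and 192 per 10000 in the AGO5 IP, against 47.1 and 26.05 per 10000 in the GFP-only IP.

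MIR5643b was the highest of the 3 miRNA genes that rose in RPM. It had 53.7 and 61.9 RPM in the AGO5 IP, against 32.9 and 26.3 RPM in the AGO9 IP and 14.0 and 8.80 RPM in the GFP-only IP, and rose by 2.27 ± 0.481 (SE, adjusted p = 0.0043). Its 24 nt reads were 44.1 and 48.9 RPM in the AGO5 IP, against 5.14 and 2.72 RPM in the GFP-only IP, while its 21 nt reads were 2.10 and 1.72 RPM in the AGO5 IP, against 5.29 and 4.75 RPM in the GFP-only IP. The rise was thus in reads longer than the printed mature sequence, at a locus in a TE-rich window. The first base of the annotated mature miRNAs was set beside these values because AGO5 is known for 5′ cytosine. Tested loci whose mature miRNAs begin only with U (76) had a median of -2.55 in RPM, those with only C (10) -0.91 and those with only A (17) 0.09. In share of miRNA reads the medians were 0.00 for U, 0.33 for C and 0.69 for A, beside 0.22 over all 153. Among loci of at least 10 RPM the RPM medians were -3.30 for U (49), -2.11 for C (3) and -1.36 for A (4), so the value for A changed its sign. The C loci include MIR395a to MIR395f, whose values are nearly the same (-0.92 to -0.88), and 4 of the U loci were at 0 in all 4 libraries. The table does not give the first base of the reads themselves.

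MIR845a and MIR845b, whose miRNAs match the primer binding sites of retrotransposons, were low and did not pass. MIR845a had 16.9 and 9.07 RPM in the AGO5 IP, against 69.0 and 28.2 RPM in the GFP-only IP (-1.75, adjusted p = 0.207). The difference of the 2 IPs was tested between day 35, in inflorescences, and day 7, a contrast in which 4.69% of all tested features were higher and 5.92% lower, and MIR845a was higher at day 35 by 7.77 (adjusted p = 0.00685). The TAS loci, transcripts that miRNAs cut to start trans-acting siRNAs, were below the background at all 8 loci in both AGO5 libraries, and 3 fell. Over all tested features 7.98% lay below both GFP-only libraries in both AGO5 libraries, and 1.39% were called lower. Of the 153 tested miRNA genes 82 lay below in the same way, so this layout was not particular to the TAS loci. TAS1B had 766 and 223 RPM in the AGO5 IP, against 3726 and 6862 RPM in the GFP-only IP, and fell by 3.61 log2 units (adjusted p = 0.0266). TAS1C had 1274 and 359 RPM in the AGO5 IP, against 4910 and 10720 RPM in the GFP-only IP, and fell by 3.42 (adjusted p = 0.0328). AT3G25795, known as TAS4, had 1.90 and 0.868 RPM in the AGO5 IP, against 12.5 and 13.9 RPM in the GFP-only IP, and fell by 2.61 (adjusted p = 0.00398). All 3 TAS calls were lost without AGO5 replicate 2. Of 14 tested pentatricopeptide repeat (PPR) genes known for phased siRNAs, limma called 0 in either direction, and the median was -1.31.

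Of 10 ARGONAUTE genes 7 were tested and only AGO2 passed. The AGO5 gene had 0.492 and 0.190 RPM in the AGO5 IP and none in the GFP-only IP (0.41, adjusted p = 0.599), which is small RNA at its locus and does not measure the tagged protein. Of 7 Dicer-like and RNA-dependent RNA polymerase genes, DCL1 alone was tested and did not pass. The plastid 16S rRNA gene ATCG00920 fell at 24 nt, with 721 and 119 RPM in the AGO5 IP, against 19557 and 1841 RPM in the GFP-only IP (-4.35, adjusted p = 0.0327). GFP-only replicate 1 held most of the plastid reads.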

How the data were processed

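Small RNA reads of 21 to 24 nt were measured in 16 libraries of 8 groups. The authors deposited RPM per feature and read size. Per the submitters' processing notes the tools were cutadapt 1.18, Bowtie2 2.3.5.1 and featureCounts of Subread 2.0.1, with build TAIR10. How reads with several matches, the strand and molecular identifiers were handled is not given in the sources used here; 655 tested features share all reads with another feature. RPM of all sizes is the sum of the 4 size columns. The deposited combined column of AGO5 day 35 replicate 1 is a score that does not sum to 1000000, and the sum of the sizes replaced it. The mCherry row, at 0 RPM in all libraries, was left out. All 80 value columns belong to a library, with 0 left without one.

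Whole reads were recovered from the RPM steps for 100% of values within 0.01. The limma test (limma 3.58.1 under R 4.3.3) took every feature averaging 1 RPM or more over all 16 libraries, after adding a pseudocount of 1 and taking log2. All 16 libraries entered 1 fit, with 8 residual degrees of freedom and Benjamini-Hochberg adjustment over all tested features, at 0.05; differences on this scale understate the change of low features. Shares were compared by exact permutation tests in scipy 1.17.1 (Python 3.11.15). The fit was tested on simulated data, with 100 features of at least 10 RPM changed by a fold of 4 and 100 by a fold of 16. It recovered 26% of the first and 75% of the second, and called 3 unchanged features. A feature that was not called is therefore not shown to be unchanged. Alternatives used edgeR 4.0.16 and DESeq2 1.42.0 on recovered reads, other scalings, filters and pseudocounts, and fits without single libraries.

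Members and gene lists were chosen with earlier results of these data known. Named were, in each direction, up to 5 TEs, 5 other nuclear genes and 5 miRNA genes of at least 10 RPM that passed without overlap of the IPs, by size of difference; up to 2 per read size; and, whatever their result, 1 locus per miRNA family of at least 500 RPM, MIR845, MIR390, TAS loci and AGO5. NLA, AGO2 and MIR164a are named from the lists or their miRNA sites; MIR164a and the CT runs were chosen after their values were seen. Sequences were read from the TAIR10.1 assembly.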

Additional observations from a re-analysis of the deposited data

Results flagged for a closer look

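The difference between the AGO5 IP and the GFP-only IP was itself tested between day 35 and day 7, as an interaction term in the same limma fit. In that contrast 4.69% of all tested features were higher at day 35 and 5.92% lower. Day 35 libraries came from inflorescences, so age and tissue cannot be told apart, and the day 35 GFP-only libraries were shallow, with 3578524 and 4160496 read assignments.

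Among higher TEs, AT5TE37085 differed between the days by -2.78 (adjusted p = 0.0310), with 1.70 at day 35 against 4.48 at day 7. AT1TE52845 differed by -3.23 (adjusted p = 0.0194), with 1.226 at day 35 against 4.45 at day 7. Among genes, AT3G29796 differed by -3.44 (adjusted p = 0.00618), with 0.80 at day 35 against 4.24 at day 7. Of the TEs lower at day 7, AT3TE65110 differed by 4.85 (adjusted p = 0.0150), AT5TE51225 by 6.74 (adjusted p = 0.00310) and AT3TE64920 by 4.85 (adjusted p = 0.00994), and all 3 were above the GFP-only IP at day 35, by 1.96, 4.13 and 2.37. AT2G07706 differed by 5.08 (adjusted p = 0.0398), with -0.87 at day 35 against -5.95 at day 7.

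MIR845a differed by 7.77 (adjusted p = 0.00685), with 6.02 at day 35 against -1.75 at day 7, and MIR845b by 5.003 (adjusted p = 0.0405), with 4.88 at day 35 against -0.12 at day 7. At day 35 MIR845a had 17295 and 11957 RPM in the AGO5 IP, against 413 and 117 RPM in the GFP-only IP. AT3G25795 differed by 3.21 (adjusted p = 0.0249), with 0.60 at day 35 against -2.61 at day 7. The AGO5 gene differed by 3.60 (adjusted p = 0.0105), with 4.01 at day 35 against 0.41 at day 7.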

How the results depend on the processing

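Leaving out single libraries moved the differences in read share to between -36.0 and -22.2 points at 21 nt, 2.28 and 10.3 at 22 nt, -7.62 and -3.20 at 23 nt, 23.2 and 33.2 at 24 nt, 42.5 and 59.6 for TEs, -27.6 and -13.4 for miRNA genes and -27.6 and -4.78 for plastid features. It gave 1996 to 3756 higher and 22 to 431 lower features at all sizes, 0 to 675 and 0 to 72 at 22 nt, 0 to 19 and 0 to 17 at 23 nt, 3369 to 4790 and 12 to 140 at 24 nt, 1 to 2 higher and 1 to 65 lower miRNA genes, 1735 to 3250 higher and 3 to 42 lower TEs, and 0 in both directions at 21 nt and for 22 nt minus 24 nt. With equal weight for every feature reaching 1 RPM at a size, the shares differed by -9.78 points at 21 nt, 0.50 at 22 nt, -0.43 at 23 nt and 9.71 at 24 nt. Higher calls at all sizes were 1549 after quantile normalization, 6631 with the 8 day 7 libraries, 1462 by edgeR, 2261 by DESeq2, 0 after median centring, 6281 without the day 35 GFP-only pair, 0 in the fit of the 4 libraries and 503 with the combined column. Lower calls were 1199 after quantile normalization, 441 with the 8 libraries, 1382 by DESeq2, 0 after median centring, 485 without the day 35 GFP-only pair, 0 in the fit of the 4 libraries, 51 with the combined column, 101 with at least 10 RPM, 1749 with centring without the day 35 GFP-only pair, 394 without structural RNA and organelles, 591 with no filter and 112 with a pseudocount of 0.1. At 21 nt the filter of 10 RPM gave 1 higher and 10 lower, and edgeR 10 higher. At 22 nt quantile normalization gave 291 and 160, the filter 357 and 49, the 8 libraries 1682 and 44 and edgeR 0 and 0. At 23 nt quantile normalization gave 226 and 157, the filter 0 and 1, the 8 libraries 1314 and 105, and edgeR 76 higher. At 24 nt quantile normalization gave 1271 and 903, the filter 3385 and 26, edgeR 1099 and 320, and the 8 libraries 155 lower. The 8 libraries gave 11 and 487 for 22 nt minus 24 nt. Higher and lower miRNA genes were 0 and 7 by edgeR and 0 and 0 over miRNA genes only, and quantile normalization gave 1 higher. TEs were 1189 and 482 after quantile normalization, 1203 and 140 by edgeR and 712 and 605 over TEs only. Replicate numbers did not pair the AGO5 and GFP-only libraries (correlation 0.0291 of same-numbered deviations). That check left out the AGO9 IP, whose miRNA share (7.19% and 0.505%) split by replicate number as in the AGO5 IP. With the number as a block there were 4146 higher and 277 lower at all sizes, and 593 and 33 at 22 nt. At 23 nt the block gave 0 and 0, and at 24 nt 5878 and 95. Of 1076 values of the 55 named results under alternatives, 785 kept their side of the threshold, 45 newly passed, 246 no longer passed and 0 turned while called; causes were not tested. Depth limits the low GFP-only values.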
